A study of Mus musculus with 30 samples.

Results

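Integrins are receptors that tie a cell to its matrix, each made of an alpha and a beta subunit, and focal adhesions are the plaques of linker, adaptor and signalling proteins that couple integrins to actin. The genes described here were chosen by name. Symbols that begin with Itga or Itgb and end in a subunit number or letter gave 26 integrin subunits, 18 alpha and 8 beta. The other 17 genes are Ptk2, Pxn, Vcl, Tln1, Tln2, Zyx, Ilk, Parva, Lims1, Fermt2, Bcar1, Tns1, Tns3, Src, Actn1, Actn4 and Flna. Together they make 43 of the 46078 genes in the count table.

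The RNA came from C2C12, an established line of mouse myoblasts, which are muscle precursor cells that grow attached to a matrix. Growing cells, kept in 20% serum, were lifted with trypsin, put in Hoechst, a dye of DNA, for 15 minutes and divided with a cell sorter by phase (G1, S, G2/M), with no other treatment or genotype in the labels. All 3 fractions share the trypsin step, which takes cells off their matrix before the RNA was made. RNA-seq gave 6 columns of fragment counts, 2 per phase. The 24 ChIP-seq samples of the series are not analysed here. A lot number stands in the titles of both S samples and in no title of the other phases, so in every comparison with S a difference of lot and one of phase cannot be told apart. The design asks how RNA levels differ between the 3 phases.

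Each column held 16109055 to 18103769 fragments. The 2 columns of a phase differed by about as much as counting fragments alone gives, with a chi-square over its degrees of freedom of 1.00, 1.03 and 1.15 for G1, S and G2/M. The sample titles number them as replicates 1 and 2, and nothing in the labels says that they came from separate cultures. Because they agreed so closely, they were summed to 1 library per phase, and no difference below has a replicate check or a p-value. Columns that do not overlap between phases are no such check either. Taken as replicates in edgeR or DESeq2, the columns called 72.6% to 83.3% of all genes. Levels are CPM, fragment counts relative to the library size as scaled with TMM factors. Each ratio has an exact 95% interval that covers counting error only, since each phase has 1 library. PCR copies are not independent molecules, so the interval can be too narrow even for counting error. Of 10 myoblast markers 9 had fragments, and they summed to 849, 907 and 952 CPM in G1, S and G2/M. Of these, Des stood at 311, 213 and 285 CPM, Myod1 at 6.64, 6.08 and 5.74, and Myf5 at 66.0, 126 and 128. Myf5 was 1.91 times G1 in S and 1.94 times in G2/M, and Ncam1 1.72 and 1.66 times, and the part of these markers in the levels given here was not tested. Of 8 leukocyte markers 6 had no fragment, Ptprc included. The phase markers differed strongly, with Cdc6 at 140.3, 11.2 and 24.2 CPM in G1, S and G2/M, and Ube2c at 14.2, 40.9 and 108 CPM in the same order. Of 16 markers of G1/S and G2/M, 7 were at least 2-fold lower in S than in G1, Cdc6, Ccne2, Mcm3 and Pcna among them. Another 5 were at least 2-fold higher in S, Cenpf, Ccnb1 and Ube2c among them. How pure the sorted fractions were was not tested.

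In muscle, the main laminin receptor pairs the alpha subunit of Itga7 with the beta subunit of Itgb1, and proliferating myoblasts also bind fibronectin, vitronectin and other ligands through Itga5, Itgav and their partners. Talin and kindlin bind the beta tail and switch the receptor on. Vinculin, alpha-actinin and filamin carry force to actin, while focal adhesion kinase and Src pass on the signal. Cells round up and take most of their adhesions apart when they enter mitosis.

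Of the 43 genes, 22 reached 50 CPM in at least 1 library, 8 of them integrins. Another 4 lay between 10 and 50 CPM, which were Itgb6, Itgb7, Pxn and Tln2. Itga2b, Itgae and Itgb8 lay between 1 and 10 CPM, and Itga10 and Itgb4 stayed under 1 CPM. The last 12 were listed at 0 fragments in all 6 columns. They were Itga1, Itga2, Itga4, Itga8, Itga9, Itga11, Itgad, Itgal, Itgam, Itgax, Itgb2 and Ilk. A count of 0 allows up to 0.0936, 0.0837 and 0.0827 CPM in G1, S and G2/M.

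**Figure D1:**
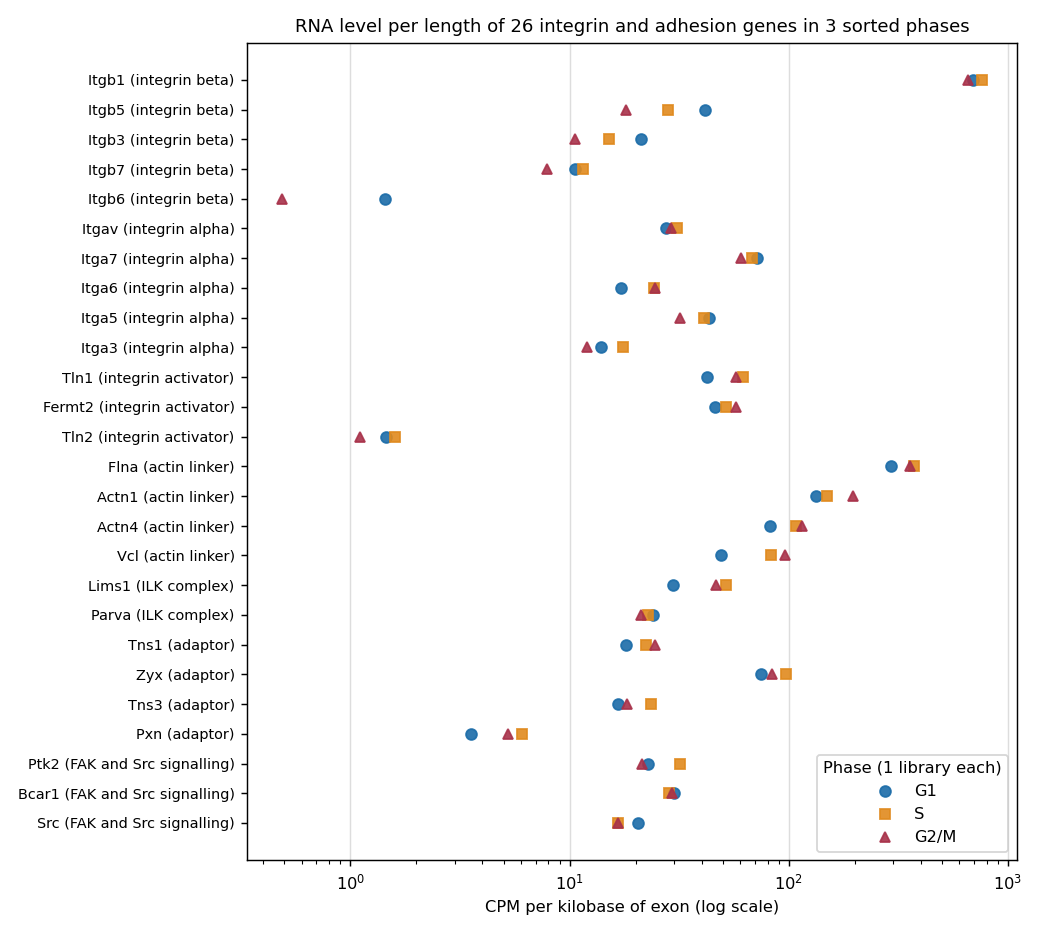
CPM per kilobase of exon (log scale) for the 26 genes that reached 10 CPM, with 1 symbol for each phase library; Itgb6 has no symbol in S, where it had 0 fragments. Itgb1 and Flna lie far to the right, and Itgb5, Itgb3 and Vcl have the widest gaps between phases among the genes above 50 CPM.

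The levels of most of these genes differed little between phases. Over the 22 genes that reached 50 CPM, the highest phase was 1.05 times the lowest for Bcar1 and 2.30 times for Itgb5, with a median of 1.38. In 18 of the 22 (81.8%) it was under 1.5 times, and the 4 others were Itgb5, Itgb3, Vcl and Lims1. Of the 4946 genes of the table that reached 50 CPM, 56.5% were under 1.5 times, but the sets were not matched for level. In G2/M against G1, 30.3% of all genes with a mean of 50 to 100 CPM changed by 1.5-fold or more. At 500 CPM or more, 8.97% did. The part of level in the contrast with all genes was not tested. Of the 22, 9 were highest in S, 7 in G1 and 6 in G2/M. In bulk RNA, fewer cells with a transcript and less of it per cell cannot be told apart.

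Among the 22 genes that reached 50 CPM, Vcl and Itgb5 had the largest ratios of G2/M over G1 in either direction. Their start sites are printed here with that of Fermt2, because Vcl and Fermt2 hold a motif that few start sites have. Vcl encodes vinculin, which reinforces the link from talin to actin, and it had the largest ratio upward of G2/M over G1 among the 22 genes. Fermt2 encodes kindlin-2, an integrin activator. Itgb5 encodes a partner of Itgav in vitronectin receptors and had the largest ratio downward among the same 22 genes. Windows from 250 bases before to 50 after the RefSeq start were available for 31 of the 43 genes, 37 windows in all (build GRCm38.p6). The CArG box is the binding motif of the actin-responsive factor SRF. It was found in 3 of the 37 windows (8.11%), those of Vcl, Fermt2 and Itgb6, against 1.63% of all 32851 windows. These genes did not share a direction. Itgb6, whose window is not printed, was 2.94-fold lower in G2/M than in G1, while Vcl and Fermt2 were higher. The windows of Vcl (chr14:20929148-20929447, plus strand), Fermt2 (chr14:45530016-45530315, minus strand) and Itgb5 (chr16:33829415-33829714, plus strand) read 5′ to 3′ as follows, with motif matches in capitals. In Vcl the capitals mark the CArG box at bases 24 to 33, CCAAT at 86 to 90 and 171 to 175, its reverse complement at 209 to 213, and the TEAD motif GGAATG at 108 to 113. In Fermt2 they mark the CArG box at bases 47 to 56. The Itgb5 window held none of the letters searched.
Vcl: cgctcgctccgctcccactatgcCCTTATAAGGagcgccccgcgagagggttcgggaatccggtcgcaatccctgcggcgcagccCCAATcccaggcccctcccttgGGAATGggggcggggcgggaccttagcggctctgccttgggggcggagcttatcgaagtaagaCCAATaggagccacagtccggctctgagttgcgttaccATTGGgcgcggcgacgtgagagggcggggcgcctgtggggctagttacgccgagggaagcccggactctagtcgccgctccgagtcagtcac
Fermt2: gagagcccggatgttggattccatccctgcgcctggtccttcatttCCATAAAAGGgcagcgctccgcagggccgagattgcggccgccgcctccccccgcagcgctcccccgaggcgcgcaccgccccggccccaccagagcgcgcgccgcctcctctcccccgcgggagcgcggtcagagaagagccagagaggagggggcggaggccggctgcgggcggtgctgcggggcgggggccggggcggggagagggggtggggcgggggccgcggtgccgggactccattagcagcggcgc
Itgb5: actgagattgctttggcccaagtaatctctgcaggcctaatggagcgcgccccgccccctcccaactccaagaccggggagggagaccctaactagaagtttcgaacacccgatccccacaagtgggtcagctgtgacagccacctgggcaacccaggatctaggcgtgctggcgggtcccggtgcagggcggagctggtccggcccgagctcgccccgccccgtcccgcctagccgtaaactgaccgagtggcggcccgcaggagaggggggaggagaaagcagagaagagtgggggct

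Both strands were searched. CCAAT, bound by NF-Y in many cell cycle promoters, lay in 8 of the 37 windows (21.6%), against 37.4% of all windows. TTTGAA, the core of the CHR element of G2/M genes, lay in 3 (8.11%), against 17.9%. GGAATG, the TEAD motif, lay in 5 (13.5%), those of Actn4, Flna, Itga10, Itgb1 and Vcl, against 14.7%. TGACTCA or TGAGTCA, the AP-1 motif, lay in 3 (8.11%), against 5.2%. These are matches of letters in short windows, and they describe the windows only. SRF's own gene, Srf, stood at 231, 228 and 133 CPM in G1, S and G2/M.

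Itgb1 encodes the beta subunit shared by most matrix integrins, and it was by far the highest integrin. Per kilobase of exon it stood at 695, 758 and 656 CPM in G1, S and G2/M, which was 90.2%, 93.2% and 94.7% of the summed level of the beta subunits. Its columns read 2833 and 2841 CPM in G1, 3102 and 3084 in S, and 2668 and 2684 in G2/M. The columns of the phases did not overlap, but the differences were small. S was 1.09 times G1 and G2/M was 1.06-fold lower than G1.

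Itgb5 and Itgb3 encode beta subunits that pair with Itgav in receptors for vitronectin and other ligands with an RGD motif. Both were highest in G1, lower in S and lowest in G2/M. Itgb5 (ENSMUSG00000022817, chr16:33829665-33949153, GRCm38) read 141 and 138 CPM in the G1 columns, 94.2 and 94.7 in S and 61.0 and 60.3 in G2/M. The 3 phases stood apart, and the columns within each nearly coincided, which is no replicate check. Its log2 ratio was -0.56 for S over G1 (interval -0.63 to -0.50), -0.64 for G2/M over S (-0.72 to -0.56) and -1.20 for G2/M over G1 (-1.28 to -1.13), the last a level 2.30-fold lower. Of all genes that averaged 50 CPM or more, 96.4% had a smaller G2/M-to-G1 change in either direction.

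Itgb3 (ENSMUSG00000020689, chr11:104608000-104670476) read 123 and 126 CPM in G1, 93.3 and 85.7 in S and 63.5 and 61.6 in G2/M. The S columns of this gene were 8.81% apart, the widest gap between columns among the 22 genes, and still lay clear of the other phases. Its log2 ratio of G2/M over G1 was -0.99 (-1.07 to -0.92), a level 1.99-fold lower, and 93.2% of genes had a smaller change. Itgav, the alpha subunit that pairs with both, read 295 and 298 CPM in G1, 340.3 and 326 in S and 313 and 311 in G2/M. Its log2 ratio of G2/M over G1 was 0.07 (0.03 to 0.11), and this turned to -0.17 when each ratio was set against genes of like exon length. Per kilobase, Itgb3 and Itgb5 together were 2.27 times Itgav in G1, 1.40 times in S and 0.986 times in G2/M. The ratio of the pair of beta subunits to Itgav thus fell from G1 through S to G2/M. It divides by all annotated exon bases of each gene, so its absolute value depends on those lengths. Of 6 epithelial markers, Krt14 alone had fragments, and it followed the same order of phases at 326, 285 and 233 CPM, with Epcam, Cdh1, Krt5, Krt8 and Krt18 at 0. Its part in the steps of Itgb3 and Itgb5 was not tested.

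**Figure D2:**
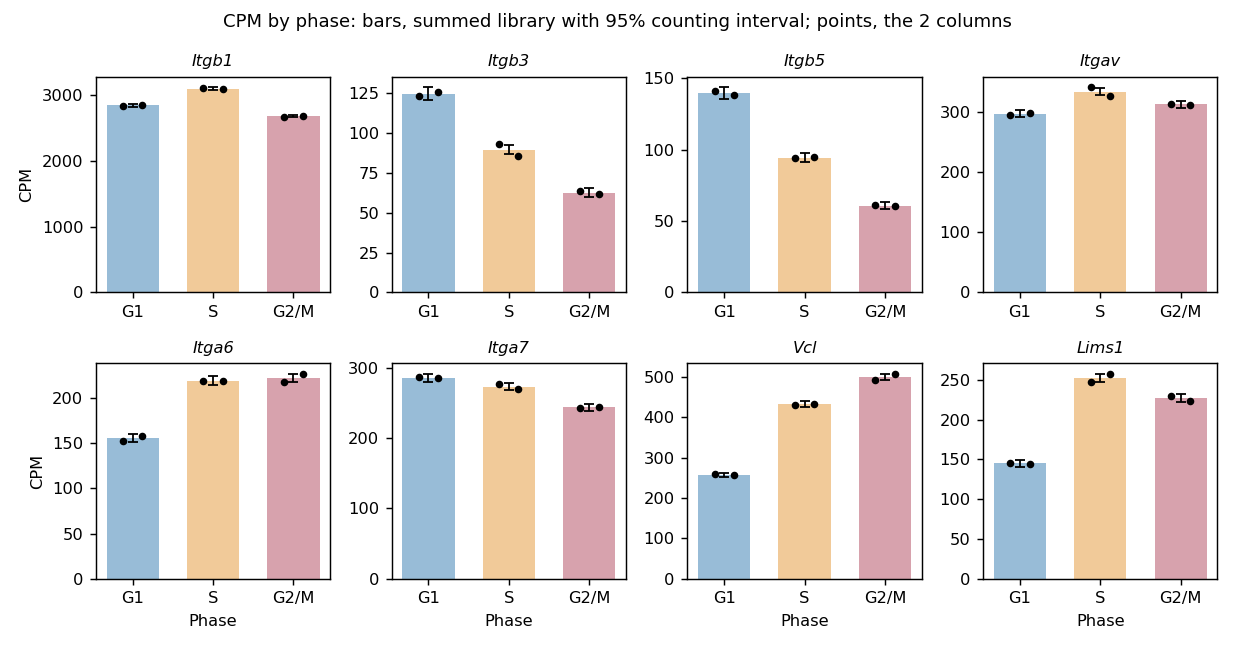
CPM of 8 genes by phase. Bars are the summed library of each phase with its exact 95% Poisson interval, black points are the 2 columns, and each axis starts at 0. Itgb3 and Itgb5 step down from G1 to G2/M, Vcl steps up, and Itgb1 and Itgav stay within 1.16 and 1.12 times between their highest and lowest phase.

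The remaining beta subunits were low. Itgb7, best known from lymphocyte integrins, stood at 28.9, 31.5 and 21.7 CPM in G1, S and G2/M. Its S and G1 levels did not differ beyond counting error (log2 ratio 0.12, interval -0.01 to 0.25), and G2/M was 1.34-fold lower than G1. The leukocyte markers that would go with lymphocytes summed to 5.27, 1.34 and 0 CPM over the 3 phases, and Ptprc and Cd3e had no fragment in any column. Itgb6, best known from epithelia, had 154 and 174 fragments in the G1 columns, 0 and 0 in S and 58 and 68 in G2/M. Against a floor of 3 fragments per summed library, it was at least 122-fold lower in S than in G1, and it was 2.94-fold lower in G2/M than in G1. Itgb8 had 108 and 91 fragments in G1, 145 and 146 in S and 3 and 2 in G2/M. Differences of 2-fold or more were common at such levels. They were found in 66.8% of the 3032 genes with a mean of 1 to 10 CPM in G1 and S, and in 72.3% of the 2952 in G1 and G2/M; larger folds were not counted.

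Among the alpha subunits, Itga7, the muscle laminin receptor, was the highest per kilobase at 71.2, 68.1 and 60.8 CPM in G1, S and G2/M. It made up 41.0%, 37.4% and 38.3% of the summed alpha level. In CPM its columns read 287 and 285 in G1, 277 and 270 in S, and 243 and 245 in G2/M. G2/M was 1.17-fold lower than G1 (log2 ratio -0.23, interval -0.27 to -0.19).

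Itga6, the alpha subunit of another laminin receptor of myoblasts, went the other way from Itga7. It read 152 and 158 CPM in G1, 219 and 219 in S, and 218 and 226 in G2/M. Both later phases lay above G1, by 1.41 and 1.43 times, and S and G2/M did not differ beyond counting error (log2 ratio 0.02, interval -0.03 to 0.06). The level of Itga6 per kilobase was 0.241, 0.356 and 0.404 of that of Itga7 in G1, S and G2/M.

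Itga5, the alpha subunit of the fibronectin receptor, read 192 and 189 CPM in G1, 179.9 and 179.3 in S, and 136 and 142 in G2/M. Its G2/M level was 1.37-fold lower than in G1 (log2 ratio -0.45, interval -0.50 to -0.39), while S was within 1.06 times of G1. Itga3, which pairs with Itgb1 to bind laminins, read 81.9 and 77.2 CPM in G1, 100.2 and 100.4 in S, and 68.1 and 68.5 in G2/M. It was highest in S, 1.26 times G1 and 1.47 times G2/M. Summed per kilobase, the alpha subunits that can pair with Itgb1 reached 173, 182 and 158 CPM, so that Itgb1 was 4.01, 4.17 and 4.15 times their sum.

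Itga2b, the platelet fibrinogen receptor subunit, had 2 and 2 fragments in G1, 38 and 45 in S and 38 and 35 in G2/M. The platelet markers summed to 2.28, 3.15 and 0 CPM, with Pf4 and Gp9 at 0. Itgae, an integrin of lymphocytes in epithelia, had 23 and 30 fragments in G1 and none in S or G2/M. Itga10 and Itgb4 each had 9 fragments in the G1 library and 0 in the other phases.

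Talin-1 and kindlin-2, which activate integrins, were lower in G1 than in the later phases. Tln1 read 414 and 418 CPM in G1, 612 and 598 in S, and 569 and 552 in G2/M. S was 1.45 times G1 (log2 ratio 0.54, interval 0.51 to 0.57) and G2/M was 1.35 times G1. Fermt2, whose window is printed above, read 173 and 170.4 CPM in G1, 191 and 198 in S, and 217 and 214 in G2/M, with a log2 ratio of G2/M over G1 of 0.33 (interval 0.28 to 0.38). Tln2, the second talin, was far lower, at 17.8, 19.4 and 13.5 CPM. Per kilobase, Tln1 was 29.1 times Tln2 in G1, 38.7 times in S and 51.6 times in G2/M.

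The 4 linkers to actin were lowest in G1, and none of their S over G1 or G2/M over G1 ratios changed direction under the other scalings or against genes of like exon length. Vcl (ENSMUSG00000021823, chr14:20929433-21033673) read 258 and 257 CPM in G1, 432 and 433 in S, and 492 and 508 in G2/M. The phases did not overlap. Its log2 ratio was 0.75 for S over G1 (0.71 to 0.79, or 1.68-fold), 0.21 for G2/M over S (0.18 to 0.24) and 0.96 for G2/M over G1 (0.92 to 0.99, or 1.94-fold). In the same comparison of G2/M with G1, 92.5% of genes had a smaller change.

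Of the 5229 exon bases of Vcl, 39.9% lie in exons of Ap3m1 on the opposite strand, and the count header names no strand setting. Ap3m1 stood at 85.1, 86.5 and 63.1 CPM in G1, S and G2/M, about the same in G1 and S and lower in G2/M. How fragments in the shared bases were assigned was not tested.

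Actn1, the first of the alpha-actinins that bundle actin at adhesions, read 510.2 and 505 CPM in G1, 578 and 565 in S, and 740.0 and 747 in G2/M. Among the 22 genes it had the largest upward step from S to G2/M (log2 ratio 0.38, interval 0.35 to 0.41). Actn4 read 402 and 419.9 CPM in G1, 545 and 541 in S, and 581 and 574 in G2/M, so that most of its difference lay between G1 and S. Per kilobase Actn1 was 1.63, 1.39 and 1.70 times Actn4. Flna, filamin A, cross-links actin and was the second highest gene of the 43 per kilobase, at 293, 372 and 358 CPM. Its S level was 1.27 times and its G2/M level 1.22 times that of G1. The 5 smooth muscle markers, of which Myh11 had no fragment, summed to 334, 352 and 472 CPM over G1, S and G2/M. Tagln made most of this sum, at 314, 324 and 399 CPM. Smtn stood at 2.37, 18.9 and 53.4 CPM, Cnn1 at 17.6, 6.14 and 17.0 and Lmod1 at 0.499, 3.32 and 1.88. The part of these markers in the levels of the linkers was not tested.

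The complex of ILK, PINCH and parvin sits on the beta tail. Lims1, which encodes PINCH-1 (ENSMUSG00000019920, chr10:58323466-58424691), read 146 and 144 CPM in G1, 247 and 258 in S, and 229.5 and 224 in G2/M. Its log2 ratio was 0.80 for S over G1 (0.75 to 0.85, or 1.74-fold) and 0.64 for G2/M over G1 (0.59 to 0.70, or 1.56-fold). Parva, alpha-parvin, was flat by comparison at 245, 233 and 216 CPM, with G2/M 1.13-fold lower than G1.

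Ilk, the pseudokinase at the centre of the complex, had 0 fragments in all 6 columns. Of its 2744 exon bases, 89.7% lie in exons of the opposite-strand genes Taf10 and Rrp8, which leaves 283 bases of its own, and these also gave no fragment. Taf10 stood at 195.8, 90.2 and 105 CPM. No level of Ilk can be read from this table.

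The 4 adaptors were lowest in G1, though against genes of like exon length this direction was lost for Tns1 in S and for Tns3 in G2/M. Zyx, zyxin, which marks adhesions under tension, read 275 and 282 CPM in G1, 362 and 365 in S, and 317 and 313 in G2/M. Tns3 read 186 and 185 CPM in G1, 265 and 263 in S, and 209 and 198 in G2/M. Both peaked in S, at 1.30 and 1.42 times G1. Tns1, a second tensin, read 291 and 285 CPM in G1, 358 and 359 in S, and 395 and 388 in G2/M, and its S over G1 ratio was 0.00 on the log2 scale against genes of like exon length. Pxn, paxillin, was low at 29.1, 49.6 and 42.9 CPM, with S 1.71 times G1. The Tns3 difference between G2/M and G1 (log2 ratio 0.14) turned to -0.10 against genes of like exon length.

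Of the 3 signalling members, Ptk2 varied most. Ptk2 encodes focal adhesion kinase, and it read 114 and 114 CPM in G1, 163 and 156 in S, and 107 and 106 in G2/M. It was highest in S, at 1.40 times G1. Its log2 ratio of G2/M over S was -0.58 (interval -0.64 to -0.52), and its G1 and G2/M levels were within 1.07 times of each other. Src, the kinase that binds it, stood at 89.8, 72.4 and 72.8 CPM in G1, S and G2/M. S and G2/M did not differ beyond counting error (log2 ratio 0.01, interval -0.07 to 0.09). Bcar1, the p130Cas scaffold, was at 94.8, 90.3 and 92.6 CPM, and neighbours in that order did not differ beyond counting error. The S over G1 ratio of Bcar1 was -0.07 and its G2/M over G1 ratio -0.04, and both turned positive, to 0.04 and 0.07, against genes of like exon length.

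**Figure D3:**
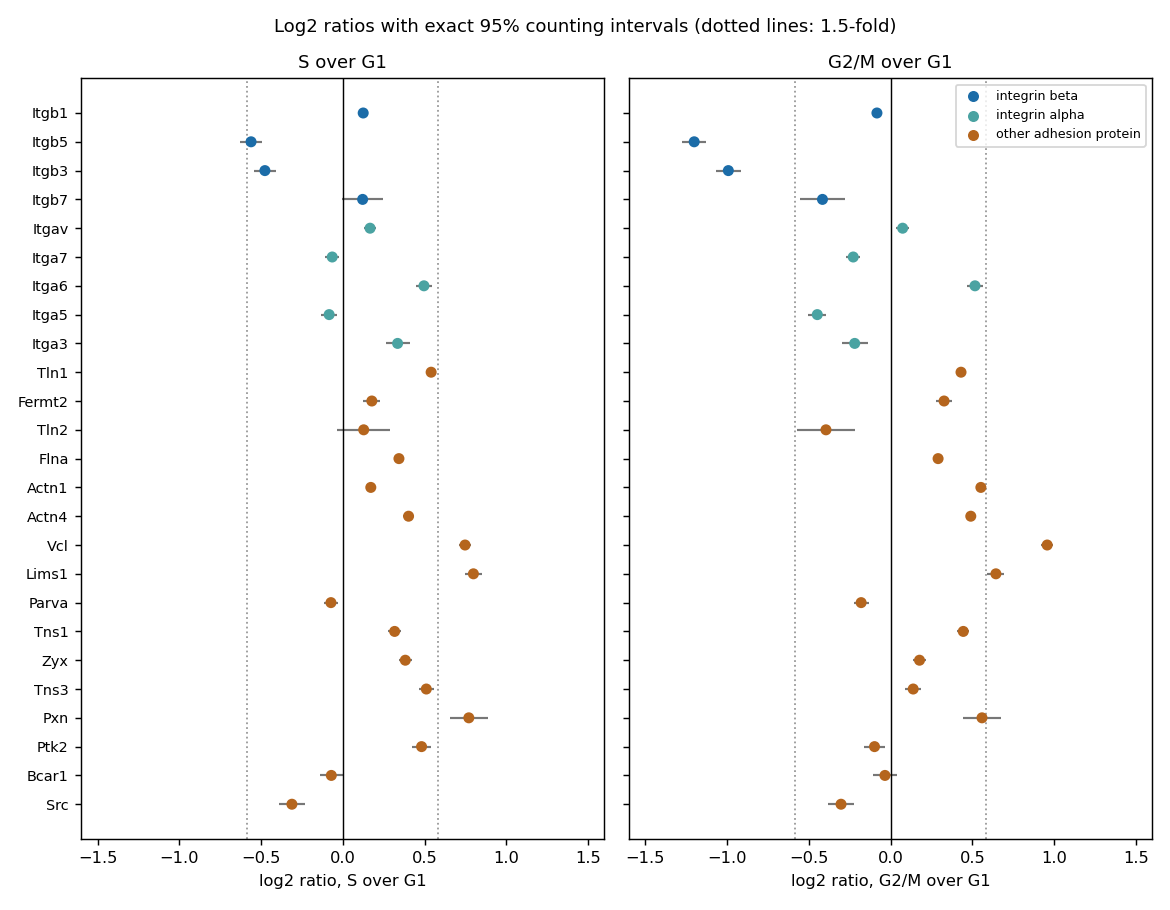
Log2 ratios of S over G1 (left) and G2/M over G1 (right) for 25 genes that reached 10 CPM, Itgb6 left out, with exact 95% counting intervals; dotted lines mark 1.5-fold. Itgb5 and Itgb3 lie to the left in both panels, and Vcl and Lims1 to the right. Both panels share the G1 library. Against genes of like exon length, ratios of Itgav and Bcar1 change sign in both panels, those of Tns1 and Tln2 for S over G1 and that of Tns3 for G2/M over G1.

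A pair of call rules was counted over the whole table. The first asked for a 2-fold ratio where either phase had at least 10 CPM, and the second for a 1.5-fold ratio at a mean of at least 50 CPM. The 3 comparisons share libraries, so their counts are not independent. In S against G1, 0 of 26 members were higher at 2-fold (8.63% of all 8773 genes were) and 1, Itgb6, was lower (8.61%). At 1.5-fold, Lims1 and Vcl of 22 were higher (11.5% of all 4223 genes) and 0 were lower (8.93%). In G2/M against S, 0 of 25 were higher (7.13%) and 0 lower (6.6%) at 2-fold. At 1.5-fold, 0 of 22 were higher (7.12%) and 1, Itgb5, was lower (7.45%). Between G2/M and G1, 0 of 26 were higher at 2-fold (10%), while Itgb5 and Itgb6 were lower (9.8%). At 1.5-fold, Lims1 and Vcl were higher (12.4%) and Itgb3 and Itgb5 lower (11.1%). With column 1 of each phase alone, Itgb6 was at 9.66 CPM in G1, under the minimum, and left both 2-fold counts, while Ptk2 joined Itgb5 at 1.5-fold in G2/M against S. With column 2 alone, Itgb3 joined the 2-fold count of G2/M against G1. These shares were near or under those of all genes, so the counts set no group of integrin and adhesion genes apart.

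**Figure D4:**
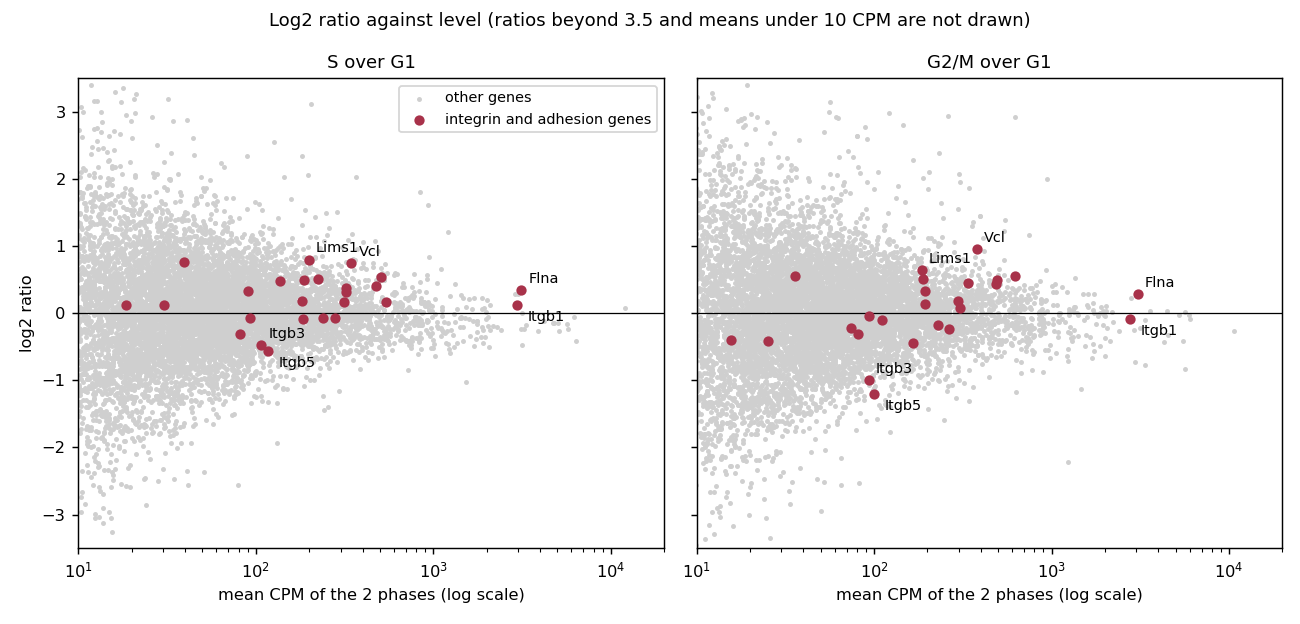
Log2 ratio against mean CPM (log scale) for S over G1 and G2/M over G1, with the integrin and adhesion genes as large points and other genes as small grey points. The spread of all genes widens toward low levels, and most of the large points lie inside it; Vcl, Itgb3 and Itgb5 lie near its edge for G2/M over G1. Itgb6 is not drawn.

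The integrins had lower medians than the other adhesion proteins in all 3 comparisons, with no test made. For S over G1, the 22 genes at a mean of 50 CPM had a median log2 ratio of 0.25, against 0.00 for all genes, and 15 of the 22 were above 0 (50.0% of all genes). The median of the 8 integrins was 0.03 and that of the 14 others 0.36, with 4 of 8 and 11 of 14 above 0. For G2/M over G1, the integrins had a median of -0.22 with 2 of 8 above 0, and the others 0.31 with 10 of 14 above 0. For G2/M over S, the medians were -0.29 and -0.02, with 1 of 8 and 7 of 14 above 0. These genes had longer exons than the rest, with a median of 5008.5 bases against 4549.5 for all genes at 50 CPM, and longer genes had higher S over G1 ratios in these libraries. Against genes of like exon length, the median of the 22 genes was 0.18 for S over G1, -0.06 for G2/M over S and 0.01 for G2/M over G1.

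The other genes of the pathway were counted in lists that leave out the 43, by the 1.5-fold rule. No list was tested, and each count stands against the shares of all genes already given for its comparison. Of 12 receptor partners, Plaur, Cd44 and Sdc4 were higher and Sdc1 and Cd47 lower in S than in G1. Sdc1, a heparan sulfate co-receptor, stood at 205, 93.9 and 126 CPM in G1, S and G2/M. Cd44, the hyaluronan receptor, stood at 436, 664 and 644 CPM. Between G2/M and G1, Plaur was higher and Sdc1 lower. Against S, only Cd81 was lower in G2/M, at 216 against 350.4 CPM.

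Of 22 adaptors and scaffolds, 3 were higher and 1 lower in S than in G1 (11.5% and 8.93% of all genes). Lpp, a relative of zyxin, stood at 259, 539 and 566 CPM in G1, S and G2/M, and was 2.08 times G1 in S and 2.18 times in G2/M. Kank2, which binds talin, stood at 166 CPM in the first phase and at 107 and 86.7 CPM in S and G2/M. Relative to G1, Lpp was the only one of 23 that was higher in G2/M, and Kank2, Tns2 and Csrp2 were lower. Relative to S, Fhl2 and Palld of 24 were higher and Csrp2 lower in G2/M.

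Of 31 signalling genes, 5 were higher and 0 lower in S than in G1 (11.5% and 8.93% of all genes), and 4 were higher and 0 lower in G2/M than in G1 (12.4% and 11.1%). Dock1, which activates Rac downstream of Bcar1, stood at 40.9, 85.7 and 77.9 CPM in G1, S and G2/M. Rock1, the kinase that drives contraction, was 1.81 times G1 in S. From S to G2/M, 4 of 32 were higher and 0 lower (7.12% and 7.45% of all genes), with Iqsec1 at 1.65-fold. The list's median log2 ratio was 0.11 for S over G1, 0.05 for G2/M over S and 0.29 for G2/M over G1.

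Of 15 actomyosin genes, only Diaph3, a formin, was higher in S than in G1, at 1.53-fold, and none was lower. In G2/M against G1, Ppp1r12a, Actg1 and Diaph3 were higher and Srf and Cfl1 lower. Cfl1, cofilin, stood at 2423 CPM in G1 and 1558 in G2/M, and Actg1, gamma-actin, at 397 and 689 CPM. In G2/M against S, Myl6 was higher and Srf lower.

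Integrins bind ligands that the cells make themselves or take from serum. Fn1, fibronectin, stood at 2718, 3317 and 3366 CPM in G1, S and G2/M, while Vtn, vitronectin, had 0 fragments in every library. Of 25 ligand genes, 6 were higher and 0 lower in S than in G1 (11.5% and 8.93% of all genes). Ccn2, a matricellular ligand of Itgav integrins, was 1.90 times G1, and Lamb1, a laminin chain, 1.75 times. In G2/M against S, 0 were higher and Tgfb1, Ccn1, Ccn2 and Postn were lower. Tgfb1 encodes a latent growth factor that Itgav integrins can release. It stood at 121, 90.8 and 36.3 CPM in G1, S and G2/M, which was 3.33-fold lower in G2/M than in G1. In that comparison Tnc and Tgfb2 were higher and Tgfb1 was the only one lower.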

How the data were processed

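The authors deposited 1 table of raw counts of fragments per gene for 6 RNA-seq columns, which featureCounts 1.5.0-p3 made over Ensembl exons of GRCm38 with read pairs as fragments, per the file headers. Per the submitters' processing notes, HISAT2 2.1.0 and SAMtools 1.6 were among the tools. The header names no option for strand or shared bases, and the sources used here do not name the library kit. Symbols were matched for 45143 of 46078 identifiers (98.0%), and 14707 genes had a fragment.

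The 2 columns of a phase were compared by chi-square over genes whose pair held at least 10 fragments (p = 0.450, 0.0109 and 3.11e-28 for G1, S and G2/M, which compare reads of columns and not conditions). Over all genes, S and G2/M departed from counting noise by 1.03 and 1.15 times only, and over the members by 1.23 and 1.40 times. The common coefficient of variation from edgeR over the columns was 0.988%. Columns were therefore summed to libraries of 32395232 (G1), 35822319 (S) and 35907974 (G2/M) fragments. TMM factors (0.990, 1.00 and 1.01, over 13113 genes with at least 10 fragments in total) came from edgeR 4.0.16 in R 4.3.3. Log2 ratios have exact binomial 95% intervals and levels exact Poisson intervals, made with SciPy 1.17.1 and tested on simulated data. In a ratio, counts under 3 fragments per library were raised to 3. Levels of different genes were compared per kilobase of exon only. No test across genes was made. Genes were named by rule: every member, and from each pathway list the 2 highest and 2 lowest ratios at a mean of 50 CPM, ligands and partners. Other genes named in a count of 5 or fewer were named after their values were seen. Members, lists and rules were chosen with earlier results of these data known. Listed symbols in an older form without a row (Ctgf, Cyr61, Mkl1, Mkl2) are there under their current names. Alternatives were other scalings, other CPM minimums, single columns, genes of like exon length, and columns treated as replicates in edgeR or DESeq2 1.42.0.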

Additional observations from a re-analysis of the deposited data

How the results depend on the processing

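With library size alone, upper quartile scaling or DESeq2 size factors, every count of members kept the value given in the report, and no member's log2 ratio changed sign. Set against genes of like exon length, 7 ratios changed sign, the largest of them that of Tns1 for S over G1 (0.32 to -0.00), and 3 members were lower by 2-fold in G2/M against G1 in place of 2. Without a CPM minimum, for members with at least 10 fragments in the pair, S against G1 had 1 higher and 2 lower at 2-fold and 4 and 2 at 1.5-fold. G2/M against S then had 1 and 1 at 2-fold and 1 and 2 at 1.5-fold. G2/M against G1 had 1 higher and 4 lower at 2-fold and 5 lower at 1.5-fold, and the median of its 29 members was -0.035 in place of 0.11, since this setting adds the low genes. With the CPM minimum halved to 5.0, 1 member was lower by 2-fold in G2/M against S, 3 in place of 2 were lower by 2-fold in G2/M against G1, and 3 in place of 2 were higher by 1.5-fold in S against G1. With 1 column per phase, the counts of lower members ran from 0 to 1 in S against G1 and from 1 to 3 in G2/M against G1 at 2-fold, and from 1 to 2 in G2/M against S at 1.5-fold. Itgb6 in G1 was at 9.66 CPM in column 1, under the minimum. With the columns taken as replicates, edgeR's quasi-likelihood test called 18 members higher and 8 lower, 6 and 18, and 14 and 14 of 29 in S against G1, G2/M against S and G2/M against G1. A replicate block gave the same 18 and 8, 6 and 18, and 14 and 14. DESeq2 called 17 and 5, 6 and 18, and 14 and 13. These fits compare 3 libraries through repeat columns and call 72.6% to 83.3% of all genes. Of the levels counted, genes with a mean of 1 to 10 CPM had the widest spread of ratios, and the part of depth in it was not tested. Every ratio rests on columns that no label ties to separate cultures.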

Other observations

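Ratios followed exon length across the whole table. Among genes at a mean of at least 50 CPM, the median log2 ratio of S over G1 was -0.31 in the shortest of 10 classes of exon length and 0.32 in the longest, and that of G2/M over G1 went from -0.15 to 0.24. Between G2/M and S the medians went from 0.13 to -0.06. Tns1, with 16010 exon bases, and Itgav, with 10744, lie in the longest class, and Itgb5, with 3362, in class 4. The S over G1 ratio of Itgb5 was -0.52 against genes of its own class, and that of Vcl was 0.72.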
